A study of Homo sapiens
Mus musculus with 6 samples.

Results

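Co-cultures of mouse C2C12 myoblasts and human HEK cells were read for Pdgfrb, Cspg4, Acta2, Tagln, Cnn1 and Myl9, genes best known from mural and smooth muscle cells. They were taken by symbol from the mouse gene table, as 6 of the 23433 entries used. All 6 passed the filter on low counts that left 11365 genes for testing. C2C12 is a skeletal muscle precursor line, and RNA was sequenced from 2 such lines. C2C12-FLNotch1, here C2C12-Notch1, carried full-length Notch1 and was kept under 1 ug/mL puromycin, and C2C12-control was the line it was set against. Each was grown with 1 of 3 HEK-293-Flp-In lines, which are human embryonic kidney cells. HEK-Jag1Ndr expressed the Nodder (Ndr) form of the Notch ligand Jag1 and HEK-Jag1WT the wild-type form, both under 300 ug/mL hygromycin, and HEK-control was the third line. All C2C12 wells, of both lines, had settled for 8 h and were then transfected with 1.6 ug of the plasmid pcDNA5. The HEK cells were added 18 h after transfection, and the mixed cells were lysed 6 h later. Each of the 6 combinations had 1 well, so wells sharing a line stood as its replicates. Each C2C12 line thus had 3 wells and each HEK line 2. With 1 line per genotype, the transgene, the drug selection and any other difference between lines cannot be told apart.

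Mural cells are the pericytes and vascular smooth muscle cells that wrap blood vessels. Pdgfrb encodes the receptor tyrosine kinase through which they respond to PDGF-B and PDGF-D, and Cspg4 encodes the NG2 proteoglycan on their surface. Acta2 encodes smooth muscle alpha-actin, Tagln the actin-binding protein SM22-alpha, Cnn1 calponin and Myl9 a regulatory light chain of myosin. These contractile genes are classical targets of serum response factor (SRF) acting with myocardin or with the actin-sensing cofactors Mkl1 and Mkl2. In vascular smooth muscle, Notch receptors activated by Jag1 have been described to raise PDGFRB and ACTA2. Skeletal myoblasts in culture also express several of these genes.

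Mouse gene reads per well ranged from 2263529 to 7965231, with the fewest in the C2C12-Notch1/HEK-Jag1WT well. Mouse reads made up 33.2% ± 3.46 of gene reads in the C2C12-Notch1 wells and 49.8% ± 2.76 in the C2C12-control wells (SD, n = 3 each). Notch1 itself had 158 to 179 RPKM in C2C12-Notch1 wells and 9.06 to 20.4 RPKM in C2C12-control wells. RPKM here is reads scaled to a length set for each gene and to the mouse reads of the well. The mouse table's Jag1 entry held 42347 to 63416 reads in wells with a Jag1 line and 110 and 280 reads in wells with HEK-control. In C2C12-Notch1 wells it had 2991 RPKM with HEK-Jag1Ndr and 3768 RPKM with HEK-Jag1WT. The matching C2C12-control wells had 1448 and 1668 RPKM. In wells with a Jag1 line, this entry can hold reads from the Jag1 of the HEK cells. Myoblast markers had means over the 6 wells of 60.6 RPKM for Myod1, 54.5 RPKM for Myf5 and 426 RPKM for Cdh15. By contrast the pericyte markers Rgs5 and Abcc9 had 0 reads in all wells, Kcnj8 and Higd1b had 1 read each, and the smooth muscle markers Myh11 and Myocd had 4 and 7 reads. These 6 are among the more restricted markers of mural and smooth muscle cells. Over the whole lists, 7 of 18 other mural markers and 6 of 25 other smooth muscle genes averaged under 1 RPKM, while Des at 476 RPKM, Smtn at 94.1 RPKM and Notch3 at 48.9 RPKM were well expressed in these wells.

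The 2 actin-associated genes Acta2 and Tagln were the most abundant of the set in the C2C12-Notch1 wells, at 330 to 338 RPKM and 297 to 332 RPKM, and their ranges overlapped. Myl9 followed at 34.5 to 41.5 RPKM, then Pdgfrb at 15.9 to 25.3 RPKM, Cnn1 at 7.60 to 9.91 RPKM and Cspg4 at 4.001 to 5.39 RPKM, with no overlap between these neighbours. The order differed in the C2C12-control wells. There Acta2 at 65.2 to 69.0 RPKM, Tagln at 63.4 to 66.5 RPKM and Pdgfrb at 41.7 to 68.6 RPKM overlapped, Myl9 had 13.9 to 16.4 RPKM, Cspg4 4.45 to 6.10 RPKM and Cnn1 0.757 to 1.39 RPKM.

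**Figure D1:**
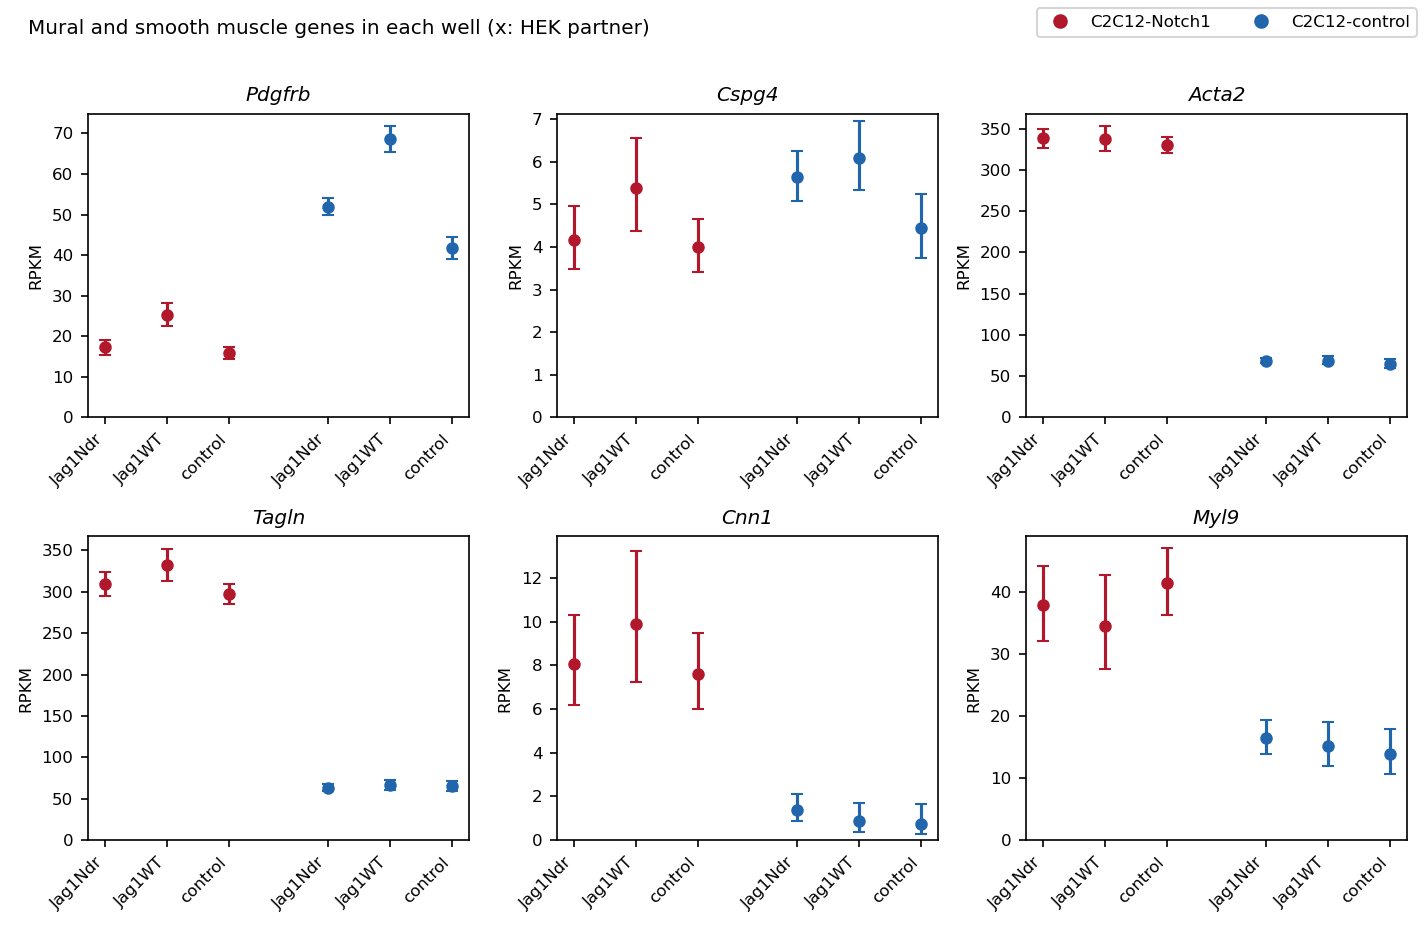
Level of each gene in every well (RPKM, linear axis from 0), with C2C12-Notch1 wells in red on the left, C2C12-control wells in blue on the right and the HEK partner on the x axis. Points are single wells and bars are exact 95% Poisson counting intervals. Acta2, Tagln, Cnn1 and Myl9 lie higher in every C2C12-Notch1 well than in any C2C12-control well, Pdgfrb lies lower, and Cspg4 overlaps.

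Between the C2C12 lines the set split by role, although for the surface genes this rested mainly on Pdgfrb. For Cspg4 the wells of the lines overlapped, and its call was lost in 6 of 13 alternatives. The 4 contractile genes were all higher in the C2C12-Notch1 line, by 2.47-fold to 7.77-fold, and the 2 surface genes were lower, Pdgfrb to 0.357 and Cspg4 to 0.822 of the C2C12-control level. All 6 of 6 were called at an adjusted p under 0.05 by edgeR's quasi-likelihood test (Benjamini-Hochberg over the 11365 genes), where 57.8% of all tested genes were called, 28.4% higher and 29.4% lower, so a call is common in this comparison. A change above 2-fold was rarer, at 3.27% of genes in the higher and 6.93% in the lower direction. The 4 contractile genes and Pdgfrb passed that size. The median log2 change was 1.78 over the 6 genes and 0.00 over all tested genes.

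Acta2 had 338, 338 and 330 RPKM in the C2C12-Notch1 wells with HEK-Jag1Ndr, HEK-Jag1WT and HEK-control, against 68.9, 69.0 and 65.2 RPKM in the matching C2C12-control wells. The wells of a line lay within a few percent of each other, with a coefficient of variation of 1.47% in C2C12-Notch1 and 3.25% in C2C12-control. The fitted log2 change was 2.30 (SE 0.0499, adjusted p 1.01e-42), the 62nd highest of all tested genes.

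Tagln gave a similar picture. It had 309, 332 and 297 RPKM in C2C12-Notch1 cells, with the partners in the same order, and 63.4, 66.5 and 65.0 RPKM in the C2C12-control wells. The groups did not overlap, and the log2 change was 2.25 (SE 0.0551, adjusted p 3.23e-40). The ratio of Acta2 to Tagln RPKM averaged 1.07 ± 0.0497 in C2C12-Notch1 and 1.04 ± 0.0422 in C2C12-control wells (SD, n = 3 each), a difference smaller than the spread between wells.

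Cnn1, whose product binds actin and calmodulin and restrains myosin ATPase, had the largest log2 change of the set but few reads. It had 62, 45 and 79 reads in the C2C12-Notch1 wells, equal to 8.05, 9.91 and 7.60 RPKM. The C2C12-control wells had 22, 8 and 6 reads, equal to 1.39, 0.871 and 0.757 RPKM. Every C2C12-Notch1 well lay above every C2C12-control well, and the log2 change of 2.96 (SE 0.237, adjusted p 2.47e-16) was the 33rd highest. Its size varied with the partner, at 5.83-fold with HEK-Jag1Ndr, 11.5-fold with HEK-Jag1WT and 9.92-fold with HEK-control, and the counting intervals of these single-well ratios overlapped widely.

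Myl9 had 37.8, 34.5 and 41.5 RPKM in the C2C12-Notch1 wells against 16.4, 15.2 and 13.9 RPKM in the C2C12-control wells. It had the smallest change of the contractile genes, at a log2 change of 1.31 (SE 0.115, adjusted p 6.88e-15). Acta2, Tagln, Cnn1 and Myl9 kept their calls and their direction in all 13 alternatives to the fit.

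Pdgfrb moved the other way. It had 17.3, 25.3 and 15.9 RPKM in the C2C12-Notch1 wells with HEK-Jag1Ndr, HEK-Jag1WT and HEK-control, against 52.0, 68.6 and 41.7 RPKM in the C2C12-control wells. The highest C2C12-Notch1 well lay below the lowest C2C12-control well, and the partner-matched ratios were close to each other, at 0.331, 0.369 and 0.376. The fitted log2 change was -1.48 (SE 0.0587, adjusted p 5.83e-30).

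Cspg4 had 4.17, 5.39 and 4.001 RPKM in the C2C12-Notch1 wells against 5.65, 6.10 and 4.45 RPKM in the C2C12-control wells. These groups overlapped. The log2 change of -0.28 (SE 0.0977, adjusted p 0.0115) was called in the edgeR fit but lost in 6 of 13 alternatives, with an adjusted p of 0.265 in DESeq2, 0.0555 without the HEK term, 0.258 without the C2C12-Notch1/HEK-Jag1Ndr well and 0.254 without the C2C12-control/HEK-Jag1Ndr well.

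The opposite moves changed the balance within the set. The summed RPKM of the 4 contractile genes exceeded that of the 2 surface genes by 29.8 ± 5.74 times in C2C12-Notch1 wells and by 2.59 ± 0.555 times in C2C12-control wells (SD, n = 3 each). The ratio of Acta2 to Pdgfrb alone averaged 17.9 ± 3.96 in C2C12-Notch1 and 1.30 ± 0.280 in C2C12-control wells. In these bulk samples, fewer cells expressing a gene and less RNA per cell cannot be told apart. Skeletal muscle markers moved with the line too, with 9 of 11 tested called, all higher, and summed levels of 1273 to 1589 RPKM in C2C12-Notch1 against 762 to 1171 RPKM in C2C12-control wells. Fibroblast markers went mostly the other way, with 1 of 6 tested called higher and 5 lower and sums of 428 to 456 RPKM against 664 to 705 RPKM. Over all tested genes 28.4% were called higher and 29.4% lower. The part of the muscle and fibroblast marker shifts in the results was not tested. Endothelial markers summed to 0.334 RPKM at most in any C2C12-Notch1 well and 0.223 RPKM in any C2C12-control well, with Tie1, Emcn and Erg at 0 reads.

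**Figure D2:**
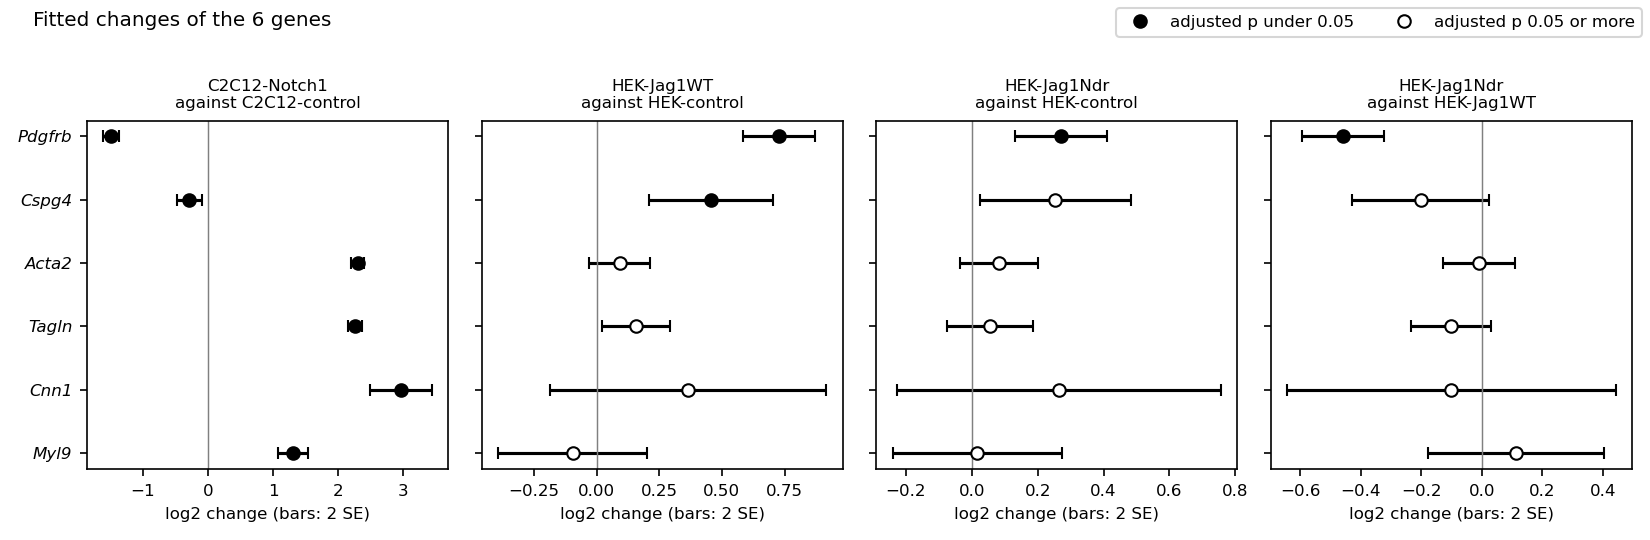
Fitted log2 change of the 6 genes in the 4 comparisons (each panel with its own x axis), with bars of 2 SE. Filled points passed an adjusted p of 0.05 in edgeR: all 6 between the C2C12 lines, Pdgfrb and Cspg4 for HEK-Jag1WT against HEK-control, and Pdgfrb alone in each comparison of HEK-Jag1Ndr.

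Other smooth muscle contractile genes were mostly higher in C2C12-Notch1 as well. Of 25 listed, 20 could be tested, with a median log2 change of 0.48. In C2C12-Notch1 13 were called higher and 1 lower, where 28.4% of all tested genes were called higher and 29.4% lower. The 4 with the smallest p were the tropomyosin genes Tpm1 at 1.74 and Tpm2 at 1.10, the LIM protein gene Fhl1 at 1.13 and the actin cross-linker Actn1 at 0.91. The exception was Smtn, encoding smoothelin, at -0.83. Tpm1 averaged 1031 ± 50.1 RPKM in C2C12-Notch1 and 304 ± 10.2 RPKM in C2C12-control wells (SD, n = 3 each). Tpm1, Tpm2 and Fhl1 are also expressed in skeletal muscle.

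Other mural markers did not share a direction. Of 18 listed, 11 could be tested, with 4 called higher and 5 lower and a median log2 change of -0.61. All tested genes were also split nearly evenly, with 28.4% called higher and 29.4% lower. Mcam, encoding the adhesion molecule CD146, was higher at 2.87, while Cd248, encoding endosialin, was at -3.01, the peptidase gene Anpep at -1.29 and the endothelin receptor gene Ednra at -3.53. Mcam averaged 9.70 ± 0.585 RPKM in C2C12-Notch1 and 1.28 ± 0.177 RPKM in C2C12-control wells, and Cd248 averaged 2.73 ± 0.713 RPKM in C2C12-Notch1 and 21.5 ± 2.41 RPKM in C2C12-control wells.

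Paralogues of the 6 genes went both ways. Of 10 tested, 6 were called higher and 3 lower, where 57.8% of all tested genes were called. Their median log2 change was 0.23. Among the actins, skeletal Acta1 was at 1.31, enteric Actg2 at 0.90, cytoplasmic Actb was at 0.20, and cardiac Actc1 at -0.38 did not pass (adjusted p 0.284). Among the calponins, Cnn2 was at 0.77 and Cnn3 at 0.61. Tagln2 fell by 0.26, and of the light chain genes Myl12a was at 0.27 and Myl12b at -0.44. Pdgfra, the paralogue of Pdgfrb, was lower in the same direction at -0.64 (adjusted p 6.69e-07). Actin proteins are near-identical and the coding sequences of their genes are similar. How reads matching several actin genes were counted is not given in the sources used here, so levels of single actins are uncertain. Cytoplasmic Actg1 had 51 reads over all wells and was not tested.

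Regulators and ligands of these genes were mixed, as were all tested genes, of which 28.4% were called higher and 29.4% lower. Srf rose, with a log2 change of 0.82, and averaged 20.9 ± 1.22 RPKM in C2C12-Notch1 and 11.7 ± 0.733 RPKM in C2C12-control wells. Of 8 tested genes listed as SRF and its regulators, not split into activators and repressors, 1 was called higher and 3 lower. The 3 were Klf4 at -0.99, Mkl1 at -0.44 and the ternary complex factor Elk3 at -0.24. Among 6 genes of PDGF ligands and related receptors, 2 were called higher and 2 lower. Pdgfb, a ligand of the Pdgfrb receptor, rose by 2.22 on the log2 scale, with 17.5 ± 0.682 RPKM in C2C12-Notch1 and 3.79 ± 0.476 RPKM in C2C12-control wells. Pdgfc was at 0.58 and Pdgfa at -0.29, a call lost in DESeq2 and without any single well with a Jag1 line (adjusted p 0.0684 to 0.243), while Pdgfd at 0.11 did not pass. In the TGF-beta pathway, which is known to raise Acta2 and Tagln, 5 of 11 tested were called higher and 4 lower. Tgfb2 was at 1.25, a call lost without the HEK term (adjusted p 0.153), Ctgf at 1.77, Skil at 0.43 and the co-receptor gene Tgfbr3 at -3.06.

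**Figure D3:**
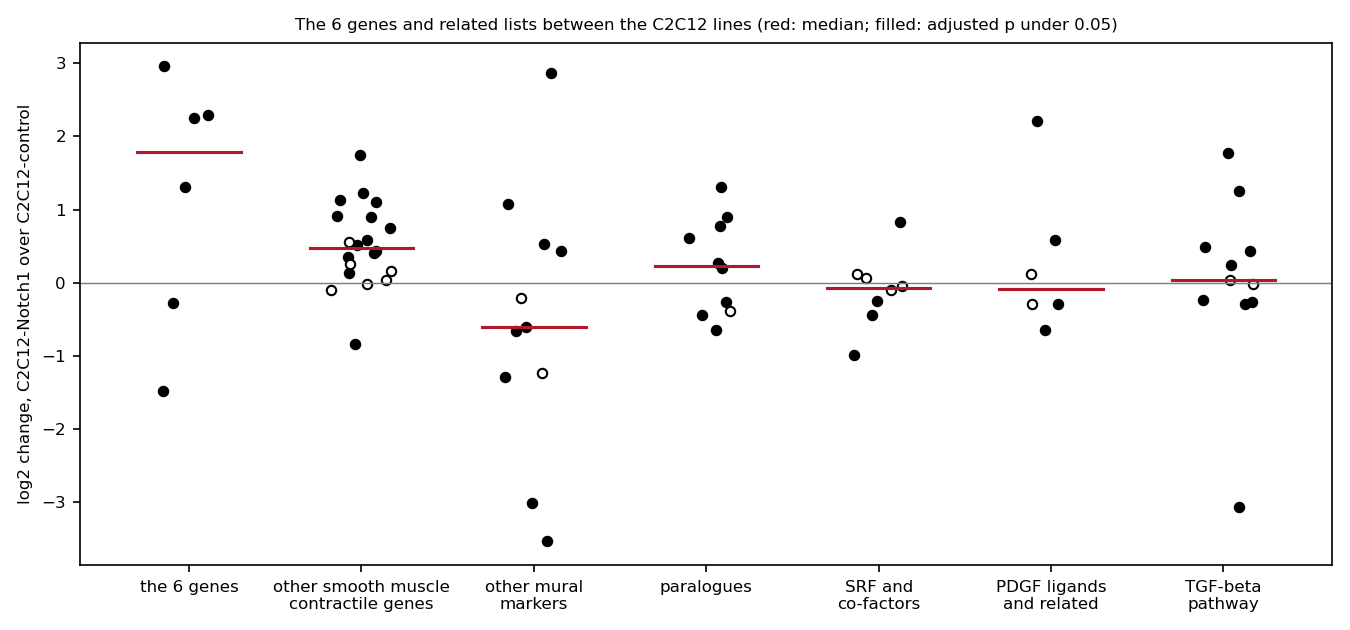
Log2 change between C2C12-Notch1 and C2C12-control (y axis) for the 6 genes and 6 related lists, with 1 point per tested gene, filled where the adjusted p in edgeR was under 0.05. Red lines are medians: 1.78 for the 6 genes, 0.48 for other smooth muscle contractile genes and -0.61 for other mural markers. Genes that belong to more than 1 list are drawn in each.

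Beside HEK-Jag1WT both surface genes were called higher than beside HEK-control, and none of the 4 contractile genes passed the test. Pdgfrb rose by 0.73 on the log2 scale against HEK-control (SE 0.0710, adjusted p 1.02e-11), a fold of 1.66, and Cspg4 by 0.45 (SE 0.124, adjusted p 0.0162), a fold of 1.37. So 2 of 6 were called, both higher, where 4.46% of all tested genes were called and 2.7% were called higher. The median log2 change was 0.26 over the 6 genes and 0.00 over all genes. Over all genes 307 were called higher and 200 lower, or 250 and 281 with scaling by library size alone.

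The rise of Pdgfrb was present in both C2C12 lines. In the C2C12-Notch1 line it had 25.3 RPKM with HEK-Jag1WT and 15.9 RPKM with HEK-control, a log2 ratio of 0.72 (exact 95% counting interval 0.503 to 0.928). In the C2C12-control line the values were 68.6 RPKM with HEK-Jag1WT and 41.7 RPKM with HEK-control, a log2 ratio of 0.74 (0.627 to 0.862). These intervals cover counting error only, and with 1 well per combination no difference between the lines can be tested. The call held in all 12 alternatives, with an adjusted p of at most 0.0118.

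Cspg4 moved by much the same ratio in both lines. It had 5.39 RPKM with HEK-Jag1WT and 4.001 RPKM with HEK-control in the C2C12-Notch1 line, a log2 ratio of 0.47 (0.0987 to 0.841). In the C2C12-control line it had 6.10 RPKM with HEK-Jag1WT and 4.45 RPKM with HEK-control, a log2 ratio of 0.48 (0.171 to 0.791). The call was lost in 6 of 12 alternatives, with an adjusted p of 0.957 in DESeq2, 0.199 without the C2C12-Notch1/HEK-Jag1WT well, 0.267 without the C2C12-control/HEK-control well and 0.122 without the C2C12-control/HEK-Jag1WT well.

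The contractile genes gave small fitted changes beside HEK-Jag1WT against HEK-control. At an unadjusted p under 0.05 edgeR counted 3 of the 6 genes, Tagln being the third, and 1543 of all 11365 tested genes. DESeq2 and both limma fits called 1 of the 6, Pdgfrb. Acta2 was at a log2 change of 0.09 (adjusted p 0.571) and its interval of 2 SE ran from -0.03 to 0.21, so a change as large as that of Pdgfrb lay outside it. Tagln was at 0.16 (0.02 to 0.29, adjusted p 0.251). For the less covered genes the interval was wide, with Cnn1 at 0.36 (-0.19 to 0.92, adjusted p 0.642) and Myl9 at -0.10 (-0.39 to 0.20, adjusted p 0.868). Between single C2C12-Notch1 wells, Tagln had a log2 ratio of 0.21 (counting interval 0.106 to 0.314) and Acta2 0.08 (0.00659 to 0.161), both intervals above no change. In C2C12-control the ratios were 0.06 (-0.140 to 0.257) for Tagln and 0.11 (-0.0430 to 0.256) for Acta2, and both intervals spanned no change.

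Beside HEK-Jag1Ndr only Pdgfrb passed against HEK-control, at a log2 change of 0.27 (SE 0.0693, adjusted p 0.0494), a fold of 1.21. That is 1 of 6, where 0.528% of all tested genes were called and 0.431% were called higher. Over all genes this was 49 higher and 11 lower, or 36 and 16 with scaling by library size alone. The call was near the threshold and was lost in 6 of 12 alternatives, with an adjusted p of 0.112 under library size scaling, 1.00 in DESeq2, 0.572 without the C2C12-control/HEK-control well and 0.831 without the C2C12-control/HEK-Jag1Ndr well. Within the lines the log2 ratio was 0.15 (-0.0533 to 0.354) in C2C12-Notch1, an interval that includes 0, and 0.33 (0.222 to 0.447) in C2C12-control. Cspg4 was at 0.25 (0.03 to 0.48, adjusted p 0.607), Acta2 at 0.08 (-0.03 to 0.20, adjusted p 0.843) and Tagln at 0.06 (-0.07 to 0.19, adjusted p 0.934). Cnn1 was at 0.26 (-0.23 to 0.76, adjusted p 0.893) and Myl9 at 0.02 (-0.24 to 0.27, adjusted p 0.993).

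Set directly against HEK-Jag1WT, Pdgfrb was lower beside HEK-Jag1Ndr, at a log2 change of -0.46 (SE 0.0679, adjusted p 4.51e-06) and a fold of 0.729. It had 17.3 RPKM with HEK-Jag1Ndr and 25.3 RPKM with HEK-Jag1WT in the C2C12-Notch1 line, and 52.0 RPKM with HEK-Jag1Ndr and 68.6 RPKM with HEK-Jag1WT in the C2C12-control line. Pdgfrb thus lay between its HEK-control and HEK-Jag1WT levels in both lines, although in C2C12-Notch1 it could not be told from HEK-control by counting error. This was the only one of the 6 to be called, where 2.03% of all tested genes were called and 1.35% were called lower. The call was lost in limma on log2(RPKM + 1), with an adjusted p of 0.125, and on log2(RPKM + 0.1), with 0.159. Cspg4 was at -0.20 (adjusted p 0.612), Acta2 at -0.01 (0.988), Tagln at -0.10 (0.704), Cnn1 at -0.10 (0.969) and Myl9 at 0.11 (0.913), with adjusted p values in parentheses. The 3 comparisons of HEK lines share wells with each other, so they are not independent.

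**Figure D4:**
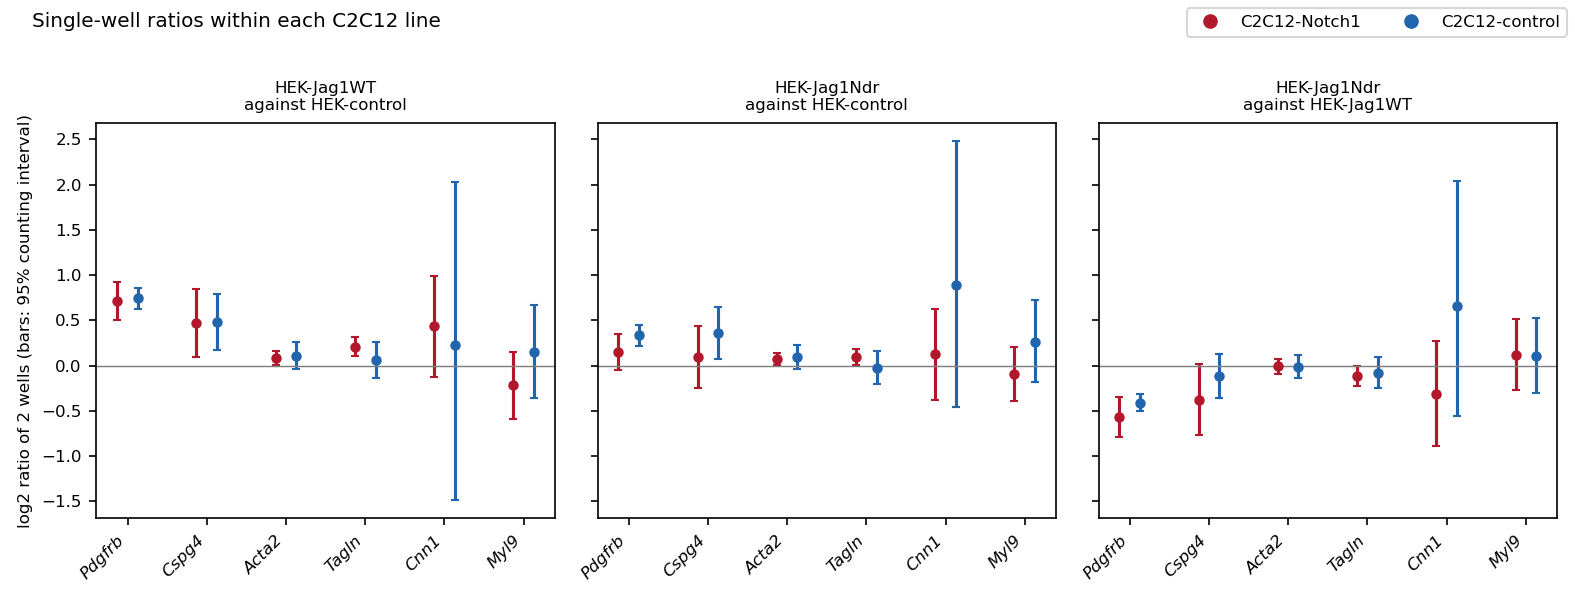
Log2 ratio between 2 single wells of the same C2C12 line (y axis) for each gene, in C2C12-Notch1 (red) and C2C12-control (blue), with exact 95% counting intervals that do not cover differences between wells. Pdgfrb is above 0 beside HEK-Jag1WT in both lines, at 0.72 and 0.74, and below 0 for HEK-Jag1Ndr against HEK-Jag1WT, at -0.57 and -0.41. Cnn1 intervals are the widest because it had 6 to 22 reads in the C2C12-control wells.

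The lists of related genes were also read for the HEK comparisons. Of the 11 other mural markers tested, 2 were called higher and 1 lower beside HEK-Jag1WT against HEK-control. Of all tested genes 4.46% were called in that comparison. There 7 of the 11 had an unadjusted p under 0.05 in edgeR, against 1543 of all 11365 tested genes. DESeq2 and each limma fit called 2 of the 11. Notch3, the Notch receptor typical of mural cells, rose by 0.95 on the log2 scale (adjusted p 1.49e-08), a call kept in all 12 alternatives. It had 77.6 RPKM with HEK-Jag1WT and 45.5 RPKM with HEK-control in the C2C12-Notch1 line, and 58.7 RPKM with HEK-Jag1WT and 27.3 RPKM with HEK-control in the C2C12-control line. Notch3 was also the only mural marker called for HEK-Jag1Ndr against HEK-Jag1WT, at -0.68 (adjusted p 5.78e-06, lost in limma at 0.0876 and 0.117), and it did not pass for HEK-Jag1Ndr against HEK-control, at 0.27 (adjusted p 0.191). The call of Ednra at 0.88 was lost in 5 of 12 alternatives, with -0.00288 without the C2C12-control/HEK-control well (adjusted p 1.00) and 0.49 without the C2C12-control/HEK-Jag1WT well (adjusted p 0.927). Foxf2, a forkhead factor of brain pericytes, was at -1.06 (adjusted p 0.0352), a call lost in DESeq2 (0.895) and without the C2C12-Notch1/HEK-control (0.312) or C2C12-Notch1/HEK-Jag1WT (0.466) well.

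Of 20 other smooth muscle contractile genes tested, Cald1 was called higher at 0.20 and Zyx lower at -0.22 beside HEK-Jag1WT against HEK-control. DESeq2 and both limma fits called 0 of the 20 there. At an unadjusted p under 0.05 edgeR counted 6 of the 20 and 1543 of all 11365 tested genes. Both calls were also lost without the C2C12-Notch1/HEK-control, C2C12-Notch1/HEK-Jag1WT or C2C12-control/HEK-Jag1WT well, with adjusted p values from 0.0802 for Zyx to 0.680 for Cald1, and that of Cald1 under library size scaling (0.0918). In that comparison edgeR called 0 of 10 paralogues, with 1 at an unadjusted p under 0.05. It called 0 of 8 for SRF and its regulators, with 2, and 0 of 6 PDGF ligands and receptors, with 2. DESeq2 and both limma fits also called 0 in each of these 3 lists. TGF-beta genes had 5 of 11 called higher and 1 lower beside HEK-Jag1WT. Of all tested genes 4.46% were called there and 2.7% were called higher. DESeq2 and each limma fit called 4 of the 11. Tgfb2 rose by 1.38, Tgfb1 by 0.53 and Smad3 by 0.45 on the log2 scale against HEK-control. Beside HEK-Jag1Ndr, Tgfb2 at 0.68 and Smad3 at 0.31 were called against HEK-control in edgeR, while DESeq2 and both limma fits called 0 of the 11. Smad3 lost that call without the C2C12-Notch1/HEK-control (0.0543) or C2C12-control/HEK-Jag1Ndr (0.0893) well. Skeletal muscle markers also moved with HEK-Jag1WT, with Myf5 at 1.34, Cdh15 at 1.18 and Myod1 at -0.77. In edgeR 3 of 11 were called higher and 2 lower, while DESeq2 called 4 and each limma fit 3. Fibroblast markers had 0 of 6 called there by edgeR, DESeq2 and limma, with 2 at an unadjusted p under 0.05 in edgeR. For HEK-Jag1Ndr against HEK-control, edgeR called 2 of the 11 skeletal muscle markers, both higher, where 0.528% of all tested genes were called. DESeq2 and both limma fits called 0. For HEK-Jag1Ndr against HEK-Jag1WT, edgeR called 2 of 11 TGF-beta genes higher and 3 lower, and 1 of 11 skeletal markers higher and 2 lower. Of all tested genes 2.03% were called there. DESeq2 called 1 TGF-beta gene and 2 skeletal markers, and each limma fit 0 and 2.

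Profiles over the 6 wells were compared by the root mean square difference of centred log2 CPM (reads scaled to library size), over 10692 genes from the same 6 libraries. By this measure Acta2 and Tagln lay 0.0563 apart, closer than any other gene compared came to either. The nearest other genes were R3hdml (0.125), Prkaa2 (0.132) and Pdgfb (0.146) for Acta2, and Pdgfb (0.106), Prkaa2 (0.137) and Filip1 (0.156) for Tagln. Myl9 was nearest to Acta1 (0.0685), Rps15a (0.0812) and Snhg8 (0.0942), while Cnn1 had no close neighbour, with Pappa (0.247), Mcam (0.247) and Cd200 (0.266). Pdgfrb was nearest to Adora2a (0.0817), Pkp1 (0.0824) and Ndrg1 (0.130). Pkp1 showed the same order of wells, at 47.4, 68.1 and 40.4 RPKM in C2C12-Notch1 with HEK-Jag1Ndr, HEK-Jag1WT and HEK-control and 128, 163 and 98.1 RPKM in C2C12-control. Cspg4 was nearest to Ascc1 (0.0593), Cd276 (0.0608) and Atp2b4 (0.0644). Pdgfrb and Cspg4, the 2 surface genes, lay 0.618 apart and so were not close to each other.

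The human table of the same wells gives the level of each orthologue in the HEK cells. PDGFRB had 17 reads over all 6 wells, a mean of 0.0787 RPKM, and MYL9 had 0 reads in each of the 6 wells, which by counting error alone allows up to 3 reads or 0.291 to 0.735 reads per 1000000 human reads. How reads over overlapping gene models were counted is not given in the sources used here, so that 0 is given as listed and not as a measure of MYL9 in HEK cells. CSPG4 averaged 1.27 ± 0.252 RPKM, TAGLN 2.64 ± 0.645 RPKM and CNN1 1.10 ± 0.0646 RPKM (SD, n = 6 wells). ACTA2 was the most abundant. It averaged 23.7 ± 3.31 RPKM in HEK-Jag1Ndr, 10.7 ± 2.03 RPKM in HEK-Jag1WT and 22.5 ± 0.0123 RPKM in HEK-control cells (SD, n = 2 each), a human gene that was lower in HEK-Jag1WT in both wells while mouse Acta2 of the same wells differed little between partners. How reads were assigned to a species is not given in the sources used here. Mouse Cnn1 of the C2C12-control wells, at 0.757 to 1.39 RPKM, was as low as human CNN1.

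Human PDGF ligand genes were also read in the HEK cells and were looked up after the mouse values were seen. PDGFD averaged 4.38 ± 0.224 RPKM in HEK-Jag1Ndr, 0.288 ± 0.00887 RPKM in HEK-Jag1WT and 4.25 ± 0.04998 RPKM in HEK-control cells (SD, n = 2 each), so that it was low in both HEK-Jag1WT wells. PDGFA averaged 5.89 ± 0.0152 RPKM in HEK-Jag1Ndr, 6.94 ± 0.626 RPKM in HEK-Jag1WT and 9.48 ± 0.0252 RPKM in HEK-control cells. PDGFB did not exceed 0.543 RPKM in any well. No test was made between these values, and their part in the mouse results was not tested.

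**Figure D5:**
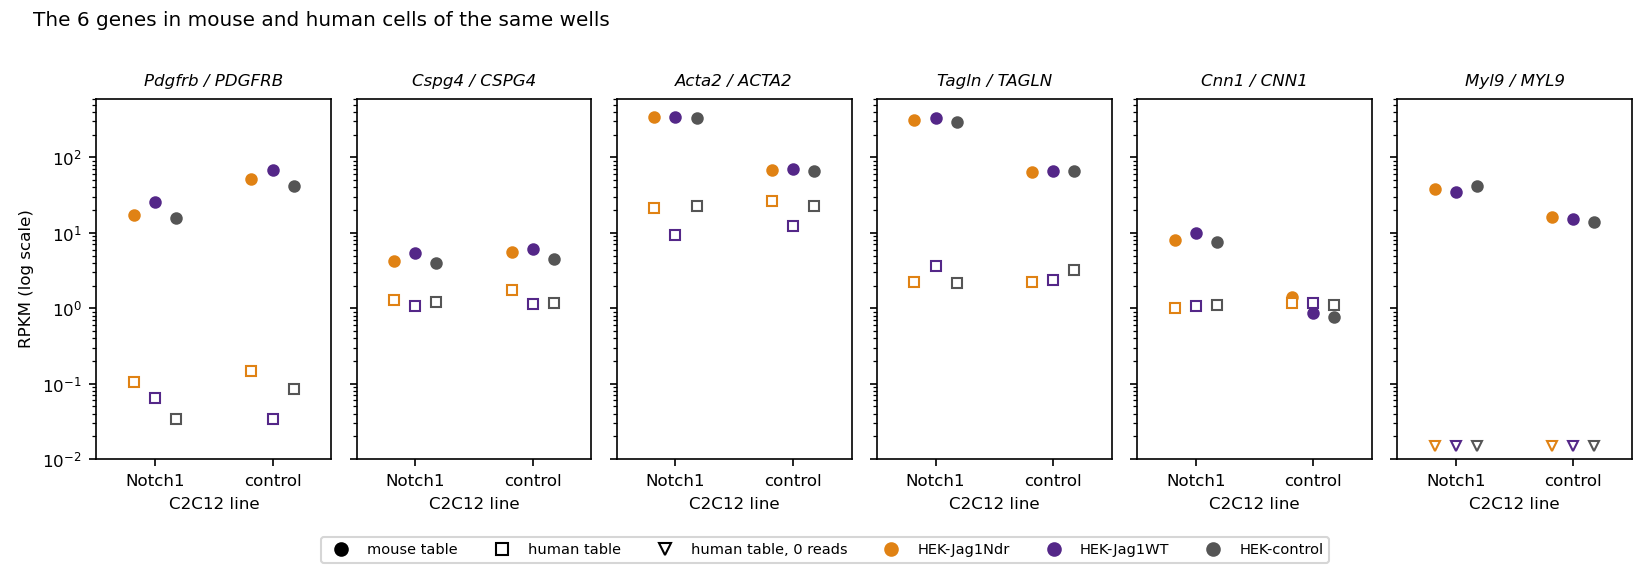
Level of each mouse gene (filled circles) and of its human orthologue (open squares) in the same wells, on a log10 RPKM axis and coloured by HEK line. The 6 mouse genes exceed their human orthologue in every well except Cnn1 in the C2C12-control wells with HEK-Jag1WT and with HEK-control. MYL9, with 0 reads in all 6 wells, is drawn as triangles at the bottom of the axis.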

How the data were processed

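Libraries came from polyA RNA of 6 co-culture wells, made with a TruSeq kit without strand marks, per the labels' protocols. The submitters' processing notes name STAR, mm9 and hg19. Neither the counter nor the step that separated species is given in the sources used here. Per the file headers, both deposited tables (mouse and human) hold whole-number counts per RefSeq gene. Next to these counts stand the authors' RPKM values, per the file headers, which served here for levels and for limma.

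Exact repeats of an entry were left out (472 of 23905 mouse and 448 of 24303 human entries). Mouse counts were fitted with edgeR 4.0.16 in R 4.3.3 (TMM scaling, filterByExpr with a minimum count of 10, robust quasi-likelihood test, Benjamini-Hochberg at 0.05). The model had a C2C12 line and a HEK line term over 6 wells and left 2 residual degrees of freedom. SE is the log2 change divided by the square root of F. Single-well ratios carry exact conditional 95% counting intervals. The p-values rest on the residual spread of the edgeR fit, estimated with the help of all genes. With 1 well per combination, that spread mixes differences between wells with any unlike response of the C2C12 lines to a partner. Since the labels name no separate cultures, no p-value measures spread between cultures, and differences between wells may be technical.

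Alternatives were DESeq2 1.42.0, limma 3.58.1 on log2(RPKM + 1) and log2(RPKM + 0.1), other scalings, no filter, no HEK term and each well left out. The 6 genes and the 10 lists beside them were chosen with earlier results of these data known. From each list up to 4 tested genes per comparison were named by smallest p, all paralogues were named, and 3 genes were named per member by profile likeness (average log2 CPM of at least 2, prior count 2). One gene that this rule names is not reported here. HEK-derived and endothelial marker lists had 0 tested genes, and HEK markers summed to 1.55 to 2.12 RPKM in C2C12-Notch1 and 0.746 to 0.912 RPKM in C2C12-control wells of the mouse table. The human table was used for levels only.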

Additional observations from a re-analysis of the deposited data

Results flagged for a closer look

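In 4 cases the single wells of the C2C12 lines moved in opposite directions for the same HEK comparison. None of these differences was tested, since each rests on 1 well per combination, and each is given as the C2C12-Notch1 log2 ratio minus the C2C12-control log2 ratio.

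Myl9 had a log2 ratio of -0.21 in C2C12-Notch1 and 0.15 in C2C12-control for HEK-Jag1WT against HEK-control, a difference of -0.3634. For HEK-Jag1Ndr against HEK-control the Myl9 ratios were -0.09 and 0.26 in C2C12-Notch1 and C2C12-control, a difference of -0.3525. Cnn1 had -0.31 in C2C12-Notch1 and 0.66 in C2C12-control for HEK-Jag1Ndr against HEK-Jag1WT, a difference of -0.9787 from 62 and 45 reads in C2C12-Notch1 and 22 and 8 reads in C2C12-control. Tagln had 0.10 in C2C12-Notch1 and -0.02 in C2C12-control for HEK-Jag1Ndr against HEK-control, a difference of 0.1172. The counting interval of each ratio included 0 except that of Tagln in C2C12-Notch1 (0.00595 to 0.186).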

How the results depend on the processing

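Of 294 refits of the 24 fitted changes of the 6 genes, 274 kept the side of the threshold, 20 lost a call and 0 turned a called direction. The calls lost were those of Cspg4 between the C2C12 lines and beside HEK-Jag1WT, and of Pdgfrb in both comparisons of HEK-Jag1Ndr. The 36 single-well ratios stayed inside their counting intervals when taken from RPKM. RPKM is a scaling of the same counts, so this outcome was nearly fixed and is no separate check. No scaling moved the median of all genes by more than 0.1 on the log2 scale.

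Between the C2C12 lines DESeq2 called 3585 genes, against 6569 in edgeR, and leaving out single wells gave 5382 to 5966 genes and 5 to 6 of the members. For HEK-Jag1WT against HEK-control the genes called were 151 in DESeq2, 180 in limma on log2(RPKM + 1) and 168 on log2(RPKM + 0.1), with 1 member called in each, and 303 to 580 genes and 1 to 2 members without single wells. For HEK-Jag1Ndr against HEK-control 91 genes were called with no filter, 6 in DESeq2 and 1 in limma with either pseudocount. There the members called were 0 under library size scaling, DESeq2 and both limma fits, and 0 to 1 without single wells, which gave 40 to 84 genes. For HEK-Jag1Ndr against HEK-Jag1WT the genes called were 41 in DESeq2 and 6 and 7 in limma with a pseudocount of 1 and 0.1, with 0 members called in both limma fits, and 138 to 313 without single wells. Ednra for HEK-Jag1WT against HEK-control ranged from -0.00288, without the C2C12-control/HEK-control well, to 0.98 over the wells left out. The cause of these changes was not tested. No paired analysis by replicate number was possible because the labels carry none. The HEK partner that the C2C12 lines share is a term of the fit, so lines are compared within partners. With 6 to 79 reads per well, Cnn1 was too shallow for the HEK comparisons to show a change smaller than its wide intervals.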
